A study of Mus musculus with 21 samples.

Results

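Chemically induced liver progenitors (CLiPs) are proliferating cells grown from mouse hepatocytes, and this comparison asked whether 8 days of culture without hepatic induction changed late-passage CLiPs differently from CLiPs at passage 1 (P1). The measure was a difference of differences for each gene: the change between day 0 and day 8 in late cells minus the same change in P1 cells, so that a constant shift between the array sets cancels. It used 12 of the 21 arrays of the series, 3 in each of 4 groups, and all 21529 genes that were measurable on all arrays of at least 1 of those groups, of 37074 gene names on the array. The groups were late CLiPs after 8 days without hepatic induction, late CLiPs at day 0, P1 CLiPs after 8 days without hepatic induction and P1 CLiPs at day 0. Late replicate 3 was at passage 11 at both times and the other late samples were at passage 12. All cells came from female C57BL/6 mice, and no group used here had received the inducers, oncostatin M and dexamethasone. Whether the 3 replicates of a group came from separate cultures or mice is not in the labels, and the p-values reflect only sample-to-sample spread, which may be technical.

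Hepatocytes make most plasma proteins, among them albumin, apolipoproteins, complement and clotting factors, and in inflammation they raise the acute-phase proteins. Their genes depend on liver-enriched transcription factors such as HNF1, HNF4 and the C/EBP family, and hepatocytes that divide in culture usually lose much of this expression. Growth in culture also draws on cholesterol synthesis and cell cycle genes, which fall when cells stop dividing.

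Levels are given as the log2 processed signal of a gene's probe minus the 75th percentile of its array, so that 0 marks the probe at that percentile. The 75th percentile signal was 1082 to 1241 on late arrays and 672 to 789 on P1 arrays, 56.8% to 60.5% of probes on late arrays and 49.9% to 56.1% on P1 arrays were well above background, and no spot was saturated. Arrays of a group correlated at r of 0.987 to 0.994 over the tested genes. The late arrays lay on 1 slide and the P1 arrays on 2, read by another version of the scanner's software, so passage and array set cannot be told apart in levels set across them, nor in any difference that is not a constant shift. Krt18, a keratin of hepatocytes and other simple epithelia, was high in all groups and lay at 8.26, 8.36 and 8.11 in uninduced late cells at day 8 and at 8.12, 8.51 and 8.46 in late cells at day 0. In P1 cells Krt18 lay at 9.04, 8.82 and 9.13 at day 8 without induction and at 9.05, 8.91 and 9.18 at day 0. Of the defining markers of other liver cells, 9 of 18 endothelial genes, among them Cdh5, Tek and Lyve1, and 8 of 20 macrophage genes, among them Adgre1, C1qa and Vsig4, were above background on no array. By contrast, 6 endothelial genes, among them Pecam1 and Stab2, and 5 macrophage genes, among them Csf1r and Ptprc, were above background on all 12 arrays. The summed level of the 20 stellate cell and fibroblast markers was 40.9 to 71.0 times the 75th percentile signal in uninduced late cells at day 8 and 25.6 to 39.0 times in late cells at day 0. In P1 cells that sum was 34.2 to 80.6 times at day 8 without induction and 26.1 to 39.7 times at day 0. Of these 20 markers, 4 were well above background on all 12 arrays. The median level of the 16 tested members was -3.73 in uninduced late cells at day 8 and -4.08 in late cells at day 0. In P1 cells that median was -0.82 at day 8 without induction and -1.23 at day 0. In such bulk samples fewer cells of a type and less RNA per cell cannot be told apart.

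The 8-day changes of late and P1 cells were correlated, and secreted hepatocyte, complement and acute-phase genes were among those with a higher change in late cells. Bile acid, urea cycle, cytochrome P450 and fatty acid oxidation genes had median differences between -0.10 and 0.06. Across genes the changes correlated at r = 0.714 (Spearman's rho = 0.725, n = 21529 genes, which are not independent replicates, and the sets share no array). Late cells had 1846 genes that rose (8.57%) and 1422 that fell (6.61%), against 1324 that rose (6.15%) and 1055 that fell (4.9%) in P1 cells, at a Benjamini-Hochberg adjusted p under 0.05 in limma and at least a 2-fold change. Scaling to the array median, which moved the median change of all genes to -0.12 in late cells and -0.14 in P1 cells, gave 1598 that rose and 1753 that fell in late cells and 1009 and 1397 in P1 cells. Both sets called 1605 genes in the same direction and 16 in opposite directions. The difference itself passed the same threshold for 413 genes with a higher change in late cells (1.92% of genes tested) and 311 with a lower one (1.44%), or 3.36% in either direction. Of the 413, 252 had risen in late cells with no call in P1 cells, 89 had risen in both, and 34 had fallen in P1 cells with no call in late cells. Of the 311, 107 had risen in P1 cells with no call in late cells, 96 had fallen in late cells with no call in P1 cells, and 25 had fallen in both. With only the P1 arrays of a single slide the counts were 214 and 180.

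**Figure D1:**
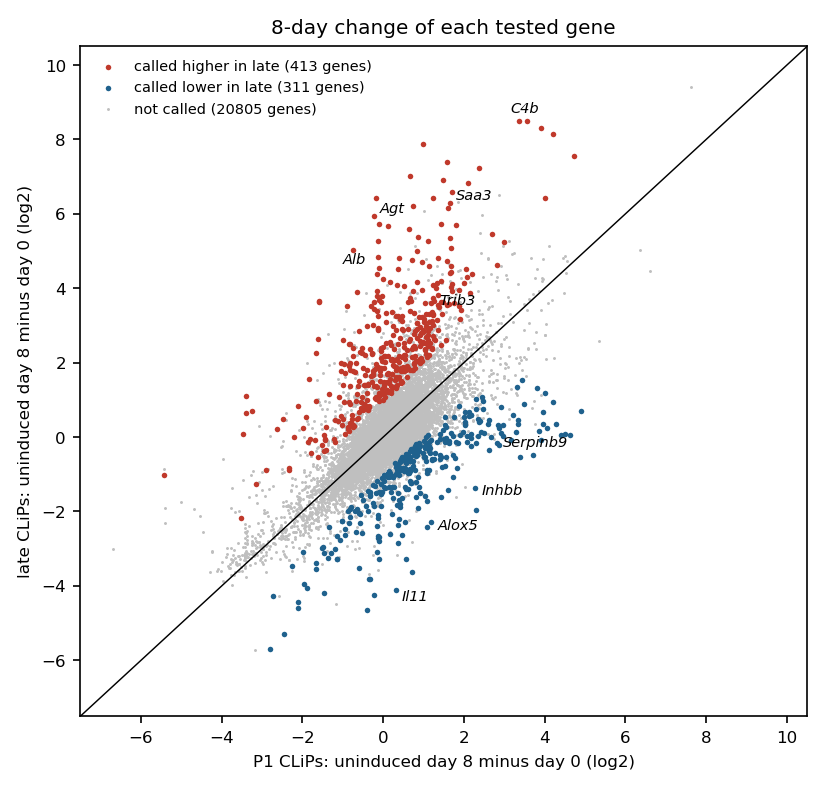
Change of each of the 21529 tested genes between day 0 and day 8 without induction, in P1 CLiPs (horizontal axis, log2) and late CLiPs (vertical axis, log2). Points are genes, the line marks equal change, red points are the 413 genes called higher in late cells and blue points the 311 called lower, and C4b, Agt and Saa3 lie far above the line.

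Called genes were spread over most gene lists, and 4 lists had a median difference above 1 on the log2 scale. Of 46 gene lists, 14 had called members that were all higher in late cells, 8 had called members that were all lower, 11 had both and 13 had none. The lists whose median difference exceeded 1 on the log2 scale were acute-phase genes, complement and coagulation, secreted hepatocyte proteins and phase II conjugation, against a median of -0.01 over all tested genes. Collagens had the lowest median, -0.56, followed by targets of the YAP and TEAD regulators at -0.47 and stellate cell and fibroblast markers at -0.43. The medians of these lists kept their sign under every alternative processing that was run.

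**Figure D2:**
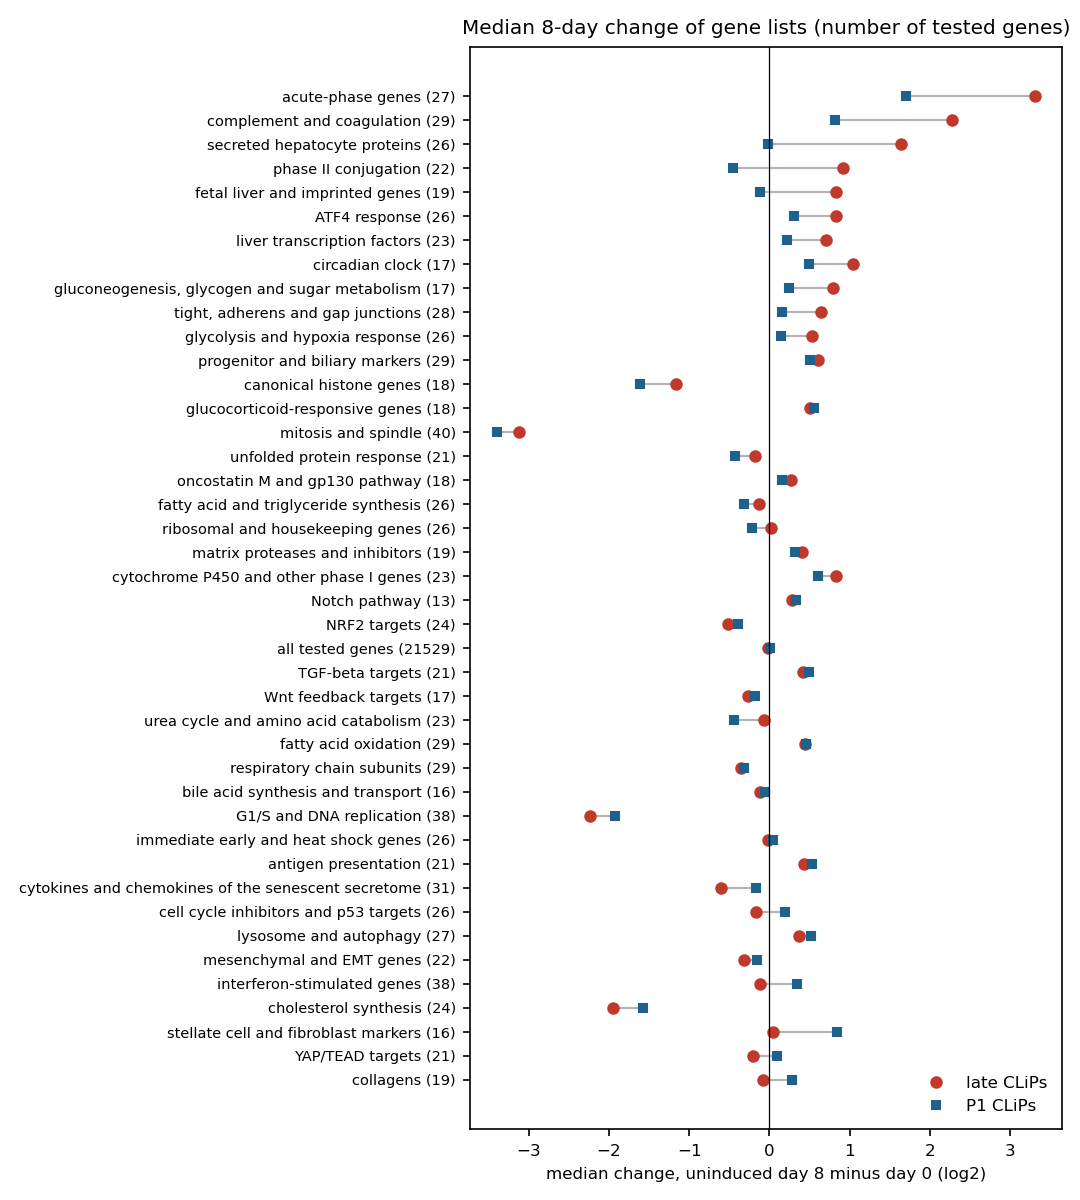
Median change between day 0 and day 8 without induction (log2) of each gene list with at least 10 tested members and of all tested genes, in late CLiPs (red circles) and P1 CLiPs (blue squares). Lists are ordered by the median of the gene-wise difference, the number of tested genes is in brackets, and the late value lies to the right of the P1 value by the widest margin for the lists at the top.

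Secreted hepatocyte proteins rose in late cells, where their day-0 levels were low, and changed little in P1 cells, where their day-0 levels were already high. Of 26 tested members, 18 of them measured on all 12 arrays, 8 had a higher change in late cells and none a lower one, with a median difference of 1.53. In late cells 17 members rose and 1 fell, and in P1 cells 3 rose and none fell. Apoe, a lipoprotein component, read 7.0, 5.91 and 6.62 in uninduced late cells at day 8, against 2.50, 2.56 and 3.06 in late cells at day 0. Its P1 levels were 7.98, 7.95 and 8.21 at day 8 without induction and 7.91, 7.85 and 8.44 at day 0. The late groups did not overlap and the P1 groups did, and the difference was 3.83 ± 0.38 (SE, adjusted p = 7.7e-04 in limma).

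Agt, which encodes the precursor of angiotensin, had the highest difference among genes measured on all 12 arrays. It read 4.62, 3.73 and 4.22 in uninduced late cells at day 8 and -0.96, -2.68 and -1.63 in late cells at day 0. Its levels were 4.42, 4.78 and 5.05 in P1 cells at day 8 without induction, against 4.86, 4.58 and 5.48 in P1 cells at day 0. All late day-8 arrays were thus above all late day-0 arrays while the P1 arrays overlapped, and the difference was 6.17 ± 0.58 (SE, adjusted p = 6.5e-04). Ttr, the carrier of thyroid hormone and retinol, read 6.39, 6.62 and 6.31 in uninduced late cells at day 8 and 3.05, 4.47 and 4.32 in late cells at day 0. In P1 cells Ttr moved the other way without a call, at 5.35, 5.92 and 6.05 on day 8 and 6.51, 6.28 and 7.01 on day 0. Its difference was 3.32 ± 0.50 (SE, adjusted p = 0.00536).

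Alb, albumin itself, varied widely between arrays at late passage. Its levels were 6.09, 4.59 and 6.60 in uninduced late cells at day 8, against -0.40, 0.56 and 3.46 in late cells at day 0, where the highest value belonged to the passage 11 replicate. P1 cells stood at 8.10, 8.08 and 8.18 on day 8 and 8.18, 8.07 and 8.42 on day 0. The late groups did not overlap and the difference was 4.66 ± 1.17 (SE, adjusted p = 0.0471). That call was lost when any single array was left out other than late uninduced day 8 replicate 2 or late day 0 replicate 3, with differences between 3.86 and 5.79 and adjusted p of at most 0.154 over all alternatives. Vtn, vitronectin, was not well above background in late cells at day 0. On the processed signal its difference was at least 40.8-fold (adjusted p = 0.00308 in limma before bounding). That bound does not extend to normexp background correction, which gave a difference of 4.01 on the log2 scale. For such genes the bound raised each dim array to the faintest level at which that array detected any probe. Afp, the fetal counterpart of albumin, showed a smaller difference of 1.93 ± 0.37 (SE, adjusted p = 0.0157), which lost its call with the P1 arrays of a single slide. Afp read 4.80, 3.96 and 5.28 in uninduced late cells at day 8 and 3.04, 2.88 and 3.09 in late cells at day 0, while all 6 P1 values lay between 8.00 and 8.46.

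**Figure D3:**
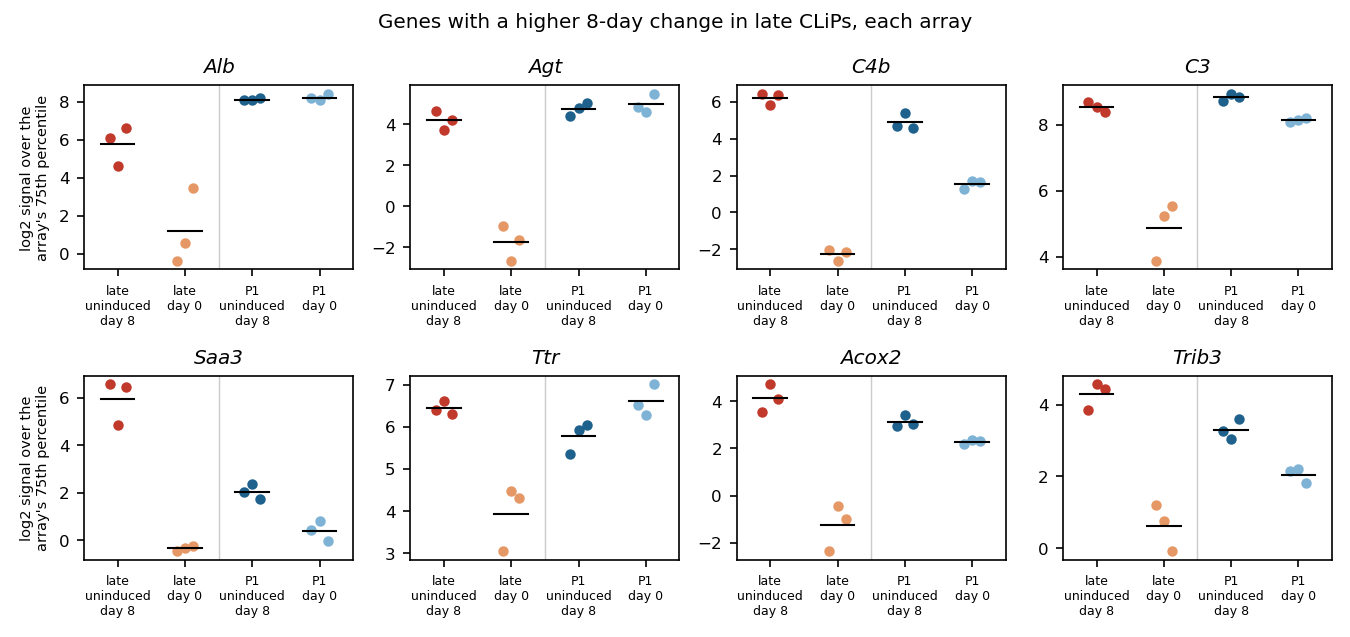
Log2 signal over the array's 75th percentile for 8 genes with a higher 8-day change in late CLiPs. Points are single arrays, bars are group means of 3 arrays, and the groups from left to right are late CLiPs at day 8 without induction, late CLiPs at day 0, P1 CLiPs at day 8 without induction and P1 CLiPs at day 0. The lowest column is late day 0 for each of Alb, Agt, C4b, C3, Ttr, Acox2 and Trib3, as for Saa3.

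Complement and coagulation genes had a higher change in late cells for 8 of 29 tested members, with none lower. The median difference was 1.84, and 19 members rose in late cells and 7 in P1 cells. C4b, a component of the classical complement pathway, read 6.43, 5.84 and 6.36 in uninduced late cells at day 8, against -2.03, -2.64 and -2.17 in late cells at day 0. In P1 cells C4b read 4.70, 5.40 and 4.58 at day 8 without induction and 1.27, 1.69 and 1.66 at day 0. The groups did not overlap in either set, and the difference was 5.13 ± 0.36 (SE, adjusted p = 8.7e-05). C3, the central complement protein, read 8.68, 8.54 and 8.40 in uninduced late cells at day 8 and 3.87, 5.24 and 5.53 in late cells at day 0. Its P1 levels, 8.73, 8.94 and 8.84 at day 8 and 8.08, 8.16 and 8.22 at day 0, differed by less than 2-fold, and the difference was 2.98 ± 0.47 (SE, adjusted p = 0.00702).

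Serping1, the inhibitor of the first complement component, rose in both sets with a difference of 3.47 ± 0.33 (SE, adjusted p = 6.5e-04). Other called members, named because they passed, included C2, Cfi, the clotting factor F5 and the anticoagulant Pros1. The calls of C4b, C3 and Serping1, like those of Agt and Ttr, held in every alternative that tested them, as did 37 of the 95 called named genes in all.

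Acute-phase genes had the highest list median, 2.07, or 1.25 with dim members set at their bound, because 14 of its 27 tested members were not measured on all 12 arrays. Among them 8 had a higher change in late cells and 1, A2m, a lower one, while 21 rose in late cells and 18 in P1 cells. Differences were above 0 for 19 of the 27. Those below 0 without a call in limma included Serpina3k at -2.76 (adjusted p = 0.0733) and Mug1 at -1.92 (adjusted p = 0.229), both dim in late cells at day 0. Serpina3m at -1.89 (adjusted p = 0.205) and Itih3 at -1.88 (adjusted p = 0.274) were also among them. Saa3, an inflammatory serum amyloid, read 6.57, 4.83 and 6.44 in uninduced late cells at day 8 and -0.48, -0.32 and -0.23 in late cells at day 0. P1 cells had 2.03, 2.35 and 1.74 at day 8 without induction and 0.42, 0.80 and -0.05 at day 0. Both sets therefore rose with no overlap, and the late rise exceeded that of P1 cells by 4.64 ± 0.57 (SE, adjusted p = 0.00223).

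Hp, haptoglobin, which binds free haemoglobin, followed the pattern of albumin. It read 5.71, 2.92 and 5.85 in uninduced late cells at day 8, against -1.36, 0.49 and 0.87 in late cells at day 0, and between 7.65 and 8.01 on all 6 P1 arrays. The difference of 4.95 ± 1.05 (SE, adjusted p = 0.0252) lost its call in the fit blocked by replicate number (adjusted p = 0.0522). It also lost its call without late uninduced day 8 replicate 1 or 3, without any P1 uninduced day 8 array and without P1 day 0 replicate 1 or 3, with differences of 4.27 to 5.91. Lcn2, lipocalin 2, an iron-sequestering protein, rose in both sets, with a difference of 2.07 ± 0.38 (SE, adjusted p = 0.0137). A2m, alpha-2-macroglobulin, a broad protease inhibitor, went the other way. It was well above background only in P1 cells at day 8, at -1.22, -1.19 and -1.57, and the difference of -3.94 ± 0.55 (SE, adjusted p = 0.00365) is given without a fold bound, since both late groups were dim. Saa1, Apcs, Cd14 and Steap4 were called higher and are named because they passed. Steap4 was well above background on no day-0 array of either set, so its difference has no fold bound.

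**Figure D4:**
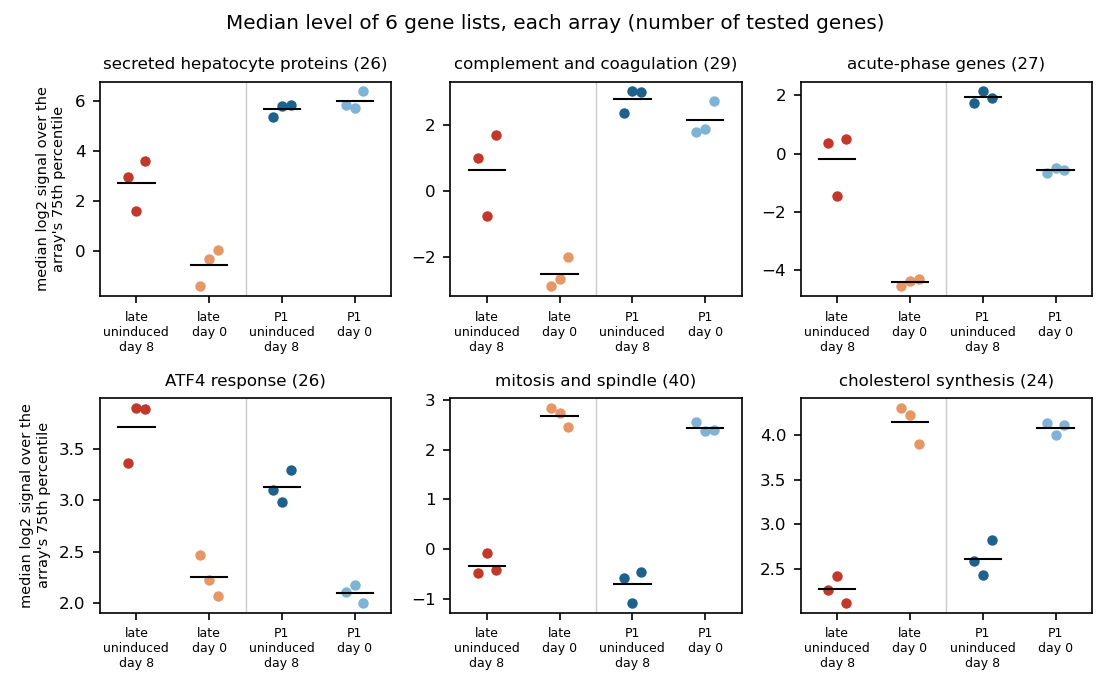
Median log2 signal over the array's 75th percentile for the tested members of 6 gene lists, by array. Points are single arrays, bars are means of 3, and groups run from late day 8 without induction, late day 0 and P1 day 8 without induction to P1 day 0. The lists in the top row are lowest in late cells at day 0, while the mitosis and cholesterol lists are lower on every day-8 array than on every day-0 array of both sets.

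The promoters of 3 of these genes are shown because their lists carried the highest median differences and each window holds a match to a motif of a liver-enriched factor. The windows run from 250 bases before to 50 after the start of transcription and come from RefSeq (GRCm38.p6): Alb at chr5:90460620-90460919 (plus strand), C3 at chr17:57228087-57228386 (minus strand) and Saa3 at chr7:46715627-46715926 (minus strand). Capitals mark matches to TTGCNNAA, a C/EBP element, or GTTAAT, the core of the HNF1 palindrome, each searched on both strands, and the motifs were chosen after seeing the lists' results.
Alb: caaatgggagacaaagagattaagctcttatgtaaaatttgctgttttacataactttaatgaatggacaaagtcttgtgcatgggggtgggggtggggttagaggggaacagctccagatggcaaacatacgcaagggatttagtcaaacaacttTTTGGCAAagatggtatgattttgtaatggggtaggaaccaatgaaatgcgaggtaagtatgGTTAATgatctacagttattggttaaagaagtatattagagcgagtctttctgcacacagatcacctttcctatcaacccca
C3: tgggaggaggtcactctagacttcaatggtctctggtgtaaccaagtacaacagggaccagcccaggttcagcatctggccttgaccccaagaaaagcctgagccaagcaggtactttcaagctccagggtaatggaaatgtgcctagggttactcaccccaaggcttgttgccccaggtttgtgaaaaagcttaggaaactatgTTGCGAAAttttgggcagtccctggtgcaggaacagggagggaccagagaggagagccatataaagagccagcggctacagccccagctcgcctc
Saa3: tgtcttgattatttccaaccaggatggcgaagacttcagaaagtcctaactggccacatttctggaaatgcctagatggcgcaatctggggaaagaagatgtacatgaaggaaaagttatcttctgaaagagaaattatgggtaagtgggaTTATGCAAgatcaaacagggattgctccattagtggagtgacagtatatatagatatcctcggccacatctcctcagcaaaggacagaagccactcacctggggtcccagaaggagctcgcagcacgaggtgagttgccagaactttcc
The Alb window holds a C/EBP match at -94 to -87 and an HNF1 core at -32 to -27, counted from the start in the table. C3 has a C/EBP match at -45 to -38 and Saa3 at -99 to -92. Of acute-phase members with a promoter in the table, 10 of 21 held the C/EBP element, as did 8 of 22 secreted hepatocyte proteins and 7 of 20 complement and coagulation genes, against 12.2% of the 27025 genes in the table. Among members called higher, it was in 4 of 6 acute-phase, 2 of 6 secreted hepatocyte and 1 of 4 complement and coagulation genes. The HNF1 core was in 8 of 22 secreted hepatocyte genes (36.4%), against 8.24% of all genes, a gene counting once if any of its starts held the motif. It was in 5 of 21 acute-phase genes (23.8%) and 5 of 20 complement and coagulation genes (25%), none of them called higher. The full HNF1 palindrome was in none of 22 secreted and 21 acute-phase genes, against 0.0111% of all genes, and the HNF4 direct repeat in none of 22 secreted and 20 complement and coagulation genes, against 0.0481%. A match is a description of the letters in the window.

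Liver transcription factors included 7 of 23 tested members with a higher change in late cells and none lower, with a median difference of 0.55. Atf5, a leucine zipper factor abundant in liver, read 6.47, 6.98 and 6.86 in uninduced late cells at day 8 and 4.01, 4.07 and 3.79 in late cells at day 0. P1 cells had 5.42, 5.91 and 5.84 at day 8 without induction, against 4.92, 4.61 and 4.85 at day 0, and the difference was 1.88 ± 0.24 (SE, adjusted p = 0.00248). Prox1, a homeobox factor of early liver, had a difference of 2.10 ± 0.40 (SE, adjusted p = 0.0152), which missed the threshold with the replicate block (adjusted p = 0.0549). Nr5a2, a nuclear receptor of bile acid metabolism, was dim in late cells at day 0 and above background on 2 of 3 arrays of uninduced late cells at day 8, with a difference of 3.53 ± 0.70 (SE, adjusted p = 0.0186) given without a fold bound. Cebpa, a central regulator of hepatocyte genes, which 1 of 3 arrays of late cells at day 0 measured above background, differed by 1.56 ± 0.38 (SE, adjusted p = 0.0438). Its call was lost without any single array other than late uninduced day 8 replicate 2 or late day 0 replicate 3, at 1.30 to 1.89. Normexp background correction reduced the Cebpa difference to 0.60 with no call. Quantile normalization, array median scaling, the mean of all probes and no filter on dim probes also lost the call. Foxa3, Cebpd and Onecut1 were also called higher, Foxa3 with its call lost in 5 of 12 fits that left out an array (2.22 to 3.05). Hnf4a, which encodes the receptor HNF4-alpha, did not differ beyond its spread, at 0.27 ± 0.29 (SE, adjusted p = 0.641): its levels were 4.45, 4.73 and 4.89 in uninduced late cells at day 8, 4.78, 5.45 and 5.28 in late cells at day 0, 5.52, 5.40 and 5.87 in P1 cells at day 8 and 6.31, 6.13 and 6.63 in P1 cells at day 0. Osmr, the oncostatin M receptor, rose in late cells and had a difference of 1.65 ± 0.31 (SE, adjusted p = 0.0143), lost with the P1 arrays of a single slide. It was the only called gene of the 18 tested in the oncostatin M and gp130 list. Socs3, a feedback inhibitor of that pathway, had 0.75 ± 0.37 (SE, adjusted p = 0.279).

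Among metabolic lists, phase II conjugation had a median difference above 1, while fatty acid oxidation, cytochrome P450 and urea cycle genes had medians near that of all genes. Of the tested members of these latter lists, 6.9%, 13% and 8.7% were nevertheless called higher and none lower. The shares over all tested genes were 1.92% higher and 1.44% lower. Fatty acid oxidation as a list had 2 of 29 members higher, among them Angptl4, and a median of -0.08. The call of Angptl4, a lipase inhibitor, was lost in 9 of 12 fits that left out an array (1.45 to 2.23) and with the replicate block (adjusted p = 0.0554). Acox2, the peroxisomal oxidase of branched chains and bile acid side chains, read 3.56, 4.73 and 4.08 in uninduced late cells at day 8, against -2.37, -0.44 and -0.98 in late cells at day 0. Its P1 levels were 2.93, 3.43 and 3.03 at day 8 without induction and 2.19, 2.34 and 2.30 at day 0. The groups did not overlap in either set, with a called rise in late cells alone, and the difference was 4.53 ± 0.62 (SE, adjusted p = 0.0032).

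Pygl, liver glycogen phosphorylase, was dim in late cells at day 0 and differed by at least 5.92-fold on the processed signal. Normexp background correction gave it a difference of 1.60 on the log2 scale. Cyp2d10, a cytochrome P450, differed by 3.33 ± 0.54 (SE, adjusted p = 0.00785) and was 1 of 3 called members among 23 in its list, whose median was 0.06. Gstt1, a glutathione transferase, moved in opposite directions: it read 4.22, 4.03 and 3.90 in uninduced late cells at day 8 and 1.43, 2.51 and 2.26 in late cells at day 0, but 3.90, 4.02 and 4.36 in P1 cells at day 8 and 5.00, 4.93 and 5.47 in P1 cells at day 0. The groups overlapped in neither set and the difference was 3.02 ± 0.37 (SE, adjusted p = 0.00205). Phase II conjugation had a median difference of 1.09 with 2 of 22 members called, Gstt1 and Gstt2, and 19 of 22 differences above 0, while 5 members fell in P1 cells and 1 in late cells. The Gstt2 call was lost in 8 of 12 fits that left out an array (2.58 to 3.54).

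Among genes of endoplasmic reticulum function, Xbp1, a factor that expands secretory capacity, differed by 1.42 ± 0.24 (SE, adjusted p = 0.00935) and was the only called member of 21 in the unfolded protein response list. Its levels were 6.52, 6.85 and 6.57 in uninduced late cells at day 8 and 4.86, 5.47 and 5.29 in late cells at day 0, with no overlap. In P1 cells they were 6.00, 6.05 and 6.17 at day 8 and 6.03, 5.82 and 6.30 at day 0, with overlap. G6pc, the last enzyme of glucose release, rose in both sets and differed by 0.09 ± 0.89 (SE, adjusted p = 0.97). Cyp3a11, a drug-metabolising P450, had -1.77 ± 0.48 (SE, adjusted p = 0.0604), with a call for a rise in P1 cells alone, and Tat, tyrosine aminotransferase, had 0.57 ± 0.14 (SE, adjusted p = 0.0452), under the 2-fold limit.

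Genes of the ATF4 response, which restores amino acid supply and redox balance under stress, had a higher change in late cells for 5 of 26 tested members and a lower one for none, with a median difference of 0.58 and 23 of 26 differences above 0. Trib3, a pseudokinase that feeds back on ATF4, read 3.84, 4.57 and 4.44 in uninduced late cells at day 8, against 1.19, 0.77 and -0.09 in late cells at day 0. In P1 cells it read 3.27, 3.03 and 3.60 at day 8 without induction and 2.15, 2.20 and 1.81 at day 0. It rose without overlap in both sets, and by 2.42 ± 0.44 more in late cells (SE, adjusted p = 0.0129). Slc7a11, the cystine importer, rose in late cells only by call, at -0.78, -0.19 and -0.82 on day 8 and -1.59, -2.03 and -2.40 on day 0. Its P1 levels were -1.57, -1.84 and -1.38 on day 8 and -1.26, -0.93 and -1.24 on day 0, and the difference was 1.86 ± 0.33 (SE, adjusted p = 0.011).

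Pycr1, the last enzyme of proline synthesis, differed by 1.38 ± 0.27 (SE, adjusted p = 0.0164), a call lost without the late passage 11 arrays, with the P1 arrays of a single slide, with normexp background correction, with the mean of all probes and with all 21 arrays in the fit. Psat1, of serine synthesis, differed by 1.11 ± 0.24 (SE, adjusted p = 0.0265), made up of changes of 0.23 in late cells and -0.88 in P1 cells, neither called. Nupr1, a stress-induced chromatin factor, differed by 3.94 ± 0.47 (SE, adjusted p = 0.00193), and was well above background on 1 of 3 arrays of late cells at day 0, while a second probe showed no difference. Atf4 itself had 0.45 ± 0.17 (SE, adjusted p = 0.157), Asns, asparagine synthetase, 0.83 ± 0.27 (SE, adjusted p = 0.109) and Ddit3, the factor CHOP, 0.69 ± 0.21 (SE, adjusted p = 0.0858).

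The promoters of the called ATF4 response genes that hold the C/EBP-ATF element are shown because ATF4 is known to bind that element with a C/EBP partner. From RefSeq (GRCm38.p6), Trib3 lies at chr2:152344011-152344310, Nupr1 at chr7:126625421-126625720, Slc7a11 at chr3:50443564-50443863 and Pycr1 at chr11:120643699-120643998, all on the minus strand. Capitals mark TGATGNAA on either strand.
Trib3: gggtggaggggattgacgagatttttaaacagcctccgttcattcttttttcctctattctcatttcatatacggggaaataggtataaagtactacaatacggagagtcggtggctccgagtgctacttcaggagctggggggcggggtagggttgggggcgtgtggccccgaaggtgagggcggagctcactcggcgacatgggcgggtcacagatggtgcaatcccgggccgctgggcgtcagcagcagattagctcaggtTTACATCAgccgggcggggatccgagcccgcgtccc
Nupr1: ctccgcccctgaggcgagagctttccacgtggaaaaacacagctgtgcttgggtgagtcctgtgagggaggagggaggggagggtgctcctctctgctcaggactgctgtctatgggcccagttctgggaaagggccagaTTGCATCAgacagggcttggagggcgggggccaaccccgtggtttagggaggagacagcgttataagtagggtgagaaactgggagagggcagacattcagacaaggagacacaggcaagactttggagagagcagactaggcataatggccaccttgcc
Slc7a11: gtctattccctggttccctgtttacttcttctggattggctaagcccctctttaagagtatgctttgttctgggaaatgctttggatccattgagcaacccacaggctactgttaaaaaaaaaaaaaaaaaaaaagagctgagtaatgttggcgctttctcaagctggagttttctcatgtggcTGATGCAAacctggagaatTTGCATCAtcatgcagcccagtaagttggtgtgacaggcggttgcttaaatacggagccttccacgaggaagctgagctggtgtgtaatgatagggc
Pycr1: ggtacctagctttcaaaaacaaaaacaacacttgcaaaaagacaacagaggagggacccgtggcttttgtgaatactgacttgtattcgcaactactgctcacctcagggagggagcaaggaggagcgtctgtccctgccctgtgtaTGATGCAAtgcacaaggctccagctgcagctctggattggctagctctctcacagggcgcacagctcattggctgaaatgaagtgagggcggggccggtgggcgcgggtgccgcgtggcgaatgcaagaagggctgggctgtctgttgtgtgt
Slc7a11 has 2 matches, at -66 to -59 and -47 to -40, Nupr1 has 1 at -110 to -103 and Pycr1 1 at -103 to -96. The Trib3 match lies after the start, at 15 to 22. Psat1, the fifth called gene, had no match in this window. Of the 23 list members with a promoter in the table, 11 held the element (47.8%), against 4.51% of the 27025 genes, and those 11 included uncalled genes such as Asns, Chac1 and Atf3.

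Genes of glycolysis and the hypoxia response had 2 of 26 members higher and none lower, with a median difference of 0.39. Slc16a3, the lactate exporter MCT4, dim on 1 of 3 arrays of P1 cells at day 0, rose in both sets with a difference of 2.26 ± 0.41 (SE, adjusted p = 0.0135), and Ndrg1, a hypoxia-induced gene, differed by 1.60 ± 0.30 (SE, adjusted p = 0.0143), a call lost with all 21 arrays in the fit, without the late passage 11 arrays and with the P1 arrays of a single slide. Circadian clock genes had 4 of 17 higher and none lower, with a median of 0.51. Rora, a nuclear receptor of the clock, Dbp, an output factor of the clock, and Bhlhe40, a clock repressor, were among them and differed by 1.17 to 1.32. The Dbp and Bhlhe40 calls were lost with all 21 arrays in the fit (adjusted p = 0.788 and 0.283). The labels used here give no hour of harvest.

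Fetal liver and imprinted genes had 5 of 19 tested members higher and none lower, with a median difference of 0.88. Igf2, a fetal growth factor measured above background on 1 of 3 arrays of late cells at day 0, differed by 3.40 ± 0.72 (SE, adjusted p = 0.0239) and lost its call with the replicate block (adjusted p = 0.0612). It also lost it on leaving out late day 0 replicate 1 or 3, P1 uninduced day 8 replicate 1 or 3 or P1 day 0 replicate 2 or 3, at 2.74 to 3.93. Cdkn1c, an imprinted inhibitor of cyclin-dependent kinases, read 0.30, -0.50 and -0.48 in uninduced late cells at day 8, against -2.26, -1.67 and -1.80 in late cells at day 0. It read -2.43, -2.06 and -2.32 in P1 cells at day 8 and -1.83, -2.22 and -2.01 in P1 cells at day 0, and the difference was 1.93 ± 0.32 (SE, adjusted p = 0.00912). Probes of Meg3, a maternally expressed long RNA, disagreed, with differences of 4.25 for the brightest and between -0.22 and 3.43 for others. H19, its counterpart near Igf2, had 4.45 ± 1.30 (SE, adjusted p = 0.0787) and is named although it fell short.

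Cell cycle genes fell in both sets. Of 40 mitosis and spindle genes, 39 fell in late cells and 39 in P1 cells, with median changes of -3.12 and -3.39. None had a called difference in limma, with 6 at an unadjusted p under 0.05, against 4525 of all 21529 tested genes, and a median difference of 0.25. Mki67, the proliferation marker, read 1.57, 1.96 and 1.77 in uninduced late cells at day 8 and 4.58, 4.62 and 4.66 in late cells at day 0. P1 cells had 0.96, 0.37 and 1.06 at day 8 and 4.48, 4.36 and 4.34 at day 0, and the difference of 0.74 ± 0.23 (SE) had an adjusted p of 0.101. Of 38 genes of G1/S and DNA replication, 36 fell in late cells and 37 in P1 cells, again with no called difference in limma and with 9 at an unadjusted p under 0.05. Their median difference of -0.10 changed sign without late uninduced day 8 replicate 1 and with the P1 arrays of a single slide (highest value 0.03). Ccnd1, cyclin D1, had -1.09 ± 0.36 (SE, adjusted p = 0.116), with a called fall in late cells of 2.02 on the log2 scale.

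Cholesterol synthesis genes fell in both sets. Of 24 genes, 21 fell in late cells and 20 in P1 cells, with median changes of -1.96 and -1.58. None had a called difference in limma. An unadjusted p under 0.05 was found for 7, against 4525 of all 21529 tested genes, and 21 differences were below 0. The median difference was -0.35 and stayed below 0 in all 26 alternatives (-0.48 to -0.24). Hmgcs1, the cytosolic synthase at the head of the pathway, read 3.30, 3.22 and 3.04 in uninduced late cells at day 8, against 5.41, 5.52 and 5.22 in late cells at day 0. P1 cells had 3.72, 3.49 and 4.01 at day 8 without induction and 5.63, 5.64 and 5.60 at day 0. Its difference was -0.31 ± 0.19 (SE, adjusted p = 0.372). Interferon-stimulated genes, with a median difference of -0.30 over 38, had no called difference in limma and 1 gene at an unadjusted p under 0.05; the sign of the median changed without late day 0 replicate 1, to 0.13.

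The genes with a lower change in late cells had varied functions. Il11, a cytokine of the interleukin 6 family, read 0.67, 0.81 and -0.72 in uninduced late cells at day 8 and 4.71, 4.30 and 4.04 in late cells at day 0. In P1 cells it was low throughout, at -2.40, -3.09 and -3.80 on day 8 and -3.49, -2.97 and -3.77 on day 0. The probe was well above background on 2 of 3 arrays in each P1 group. The late groups did not overlap and the difference was -4.41 ± 0.63 (SE, adjusted p = 0.00416). Serpinb9, an inhibitor of granzyme B, behaved the other way round: it read 2.56, 2.28 and 2.92 in uninduced late cells at day 8 and 2.97, 2.17 and 3.06 in late cells at day 0, against 4.43, 4.48 and 4.22 in P1 cells at day 8 and 1.61, 2.02 and 1.07 in P1 cells at day 0. Here only the P1 groups were apart, and the difference was -2.96 ± 0.40 (SE, adjusted p = 0.0032).

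Inhbb, a subunit of activins and inhibins, had the lowest difference among genes measured on all 12 arrays, -3.64 ± 0.67 (SE, adjusted p = 0.0136). It fell in late cells, at 0.92, -0.61 and -0.99 on day 8 and 1.70, 0.61 and 1.07 on day 0 with overlap, and rose in P1 cells, at 3.08, 3.05 and 2.72 on day 8 and 1.25, 0.61 and 0.14 on day 0 without overlap. Its call was lost without the late passage 11 arrays and with the P1 arrays of a single slide. Elmod1, a GTPase-activating protein, differed by -3.51 ± 0.42 (SE, adjusted p = 0.00199), Alox5, the 5-lipoxygenase that starts leukotriene synthesis, by -3.48 ± 0.51 (SE, adjusted p = 0.00467) and Chst15, a chondroitin sulfotransferase, by -2.81 ± 0.33 (SE, adjusted p = 0.00181). All 3 fell in late cells and rose in P1 cells, with a call in each set. Mmp15, a membrane-bound matrix protease, rose in P1 cells by 2.92 and changed by 0.12 in late cells, for a difference of -2.79 ± 0.37 (SE, adjusted p = 0.00282).

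Flt1, a VEGF receptor, read 2.01, 0.92 and 1.92 in uninduced late cells at day 8, against 4.57, 3.21 and 3.92 in late cells at day 0, and lay between -2.48 and -1.28 on all P1 arrays. Its difference of -2.82 ± 0.57 (SE, adjusted p = 0.0203) lost its call without P1 uninduced day 8 replicate 1 or P1 day 0 replicate 3 (-3.16 to -2.47 over the arrays left out singly). It was the only called gene of 8 tested endothelial markers. The other 2 of the 10 lowest symbols, Zbtb32, a zinc finger repressor, and 5830416P10Rik, fell in late cells with no call in P1 cells, and the Zbtb32 call was lost without any single array other than late uninduced day 8 replicate 1, late day 0 replicate 1 or 3 or P1 day 0 replicate 2 (-3.78 to -2.76). Cftr, the chloride channel of bile ducts, rose in P1 cells by 2.88 and changed by -0.22 in late cells, for a difference of -3.10 ± 0.22 (SE, adjusted p = 8.7e-05), which the mean of all probes reduced to -0.75 with no call. No other Cftr probe was well above background on all arrays of any group.

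**Figure D5:**
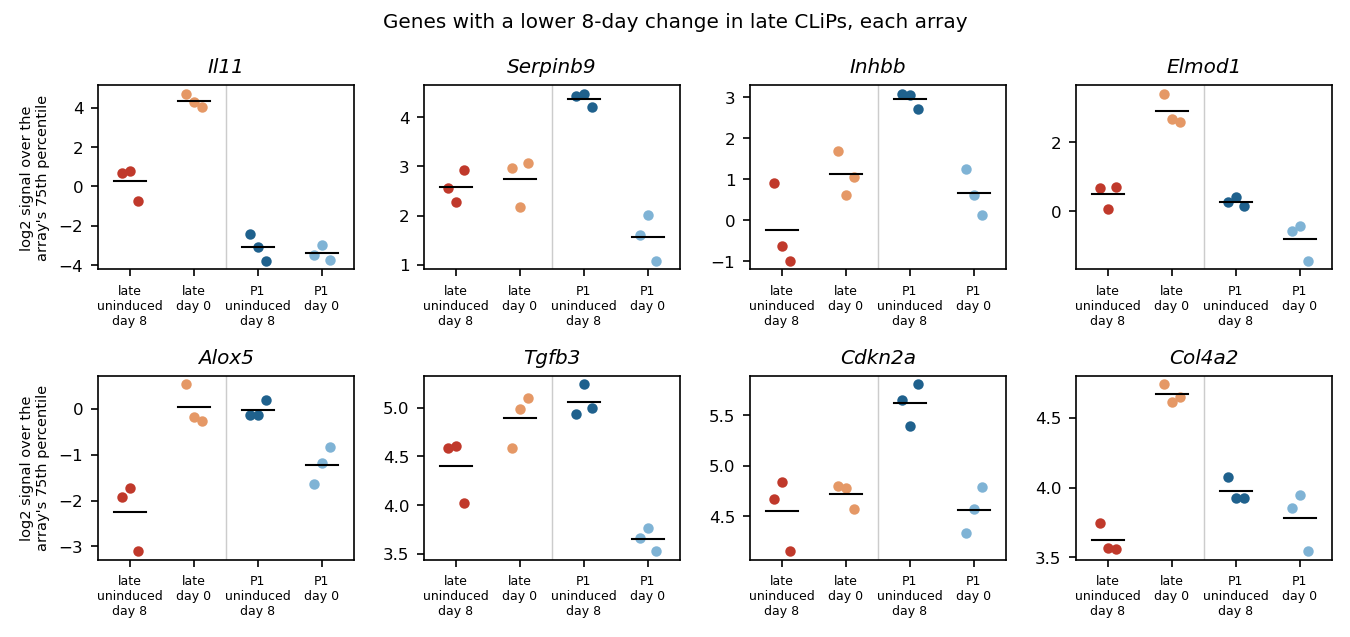
Log2 signal over the array's 75th percentile for 8 genes with a lower 8-day change in late CLiPs. Points are single arrays, bars are means of 3, and groups run from late day 8 without induction and late day 0 to P1 day 8 without induction and P1 day 0. Il11 and Col4a2 fell in late cells with no call in P1 cells, Serpinb9, Tgfb3 and Cdkn2a rose in P1 cells with no call in late cells, and Inhbb, Elmod1 and Alox5 did both.

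Lists of matrix, adhesion and growth factor genes had called members, some of them in both directions. Of 19 tested collagens, 2 had a lower change and none a higher one: Col4a1 and Col4a2, the paired chains of basement membrane collagen. Col4a2 read 3.74, 3.56 and 3.56 in uninduced late cells at day 8 and 4.74, 4.61 and 4.65 in late cells at day 0, against 4.08, 3.93 and 3.93 in P1 cells at day 8 and 3.85, 3.95 and 3.54 in P1 cells at day 0. Only the late groups were apart, and the difference was -1.24 ± 0.15 (SE, adjusted p = 0.00233), with no call when all 21 arrays entered the fit (adjusted p = 0.101). Col4a1 differed by -1.11 ± 0.18 (SE, adjusted p = 0.00707), and fell short of 2-fold without P1 day 0 replicate 3 (-0.95). Only 11 of the 19 collagens were measured on all 12 arrays. The stellate cell and fibroblast markers, with 2 of 16 tested members lower, Rgs5 and Colec11, had a median below 0 as well, and Rgs5 was dim in both late groups. The Colec11 call was lost in 11 of 12 fits that left out an array (-2.01 to -1.33) and with the replicate block (adjusted p = 0.0809), and the part of these markers in the collagen result was not tested.

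Among targets of YAP and TEAD, 3 of 21 were lower and none higher: Crim1, which binds growth factors at the membrane, at -1.13 ± 0.15 (SE, adjusted p = 0.00293), Tgfb2 at -1.50 ± 0.34 (SE, adjusted p = 0.031) and Ankrd1 at -1.0 ± 0.15 (SE, adjusted p = 0.00583). The Tgfb2 call was lost without late uninduced day 8 replicate 2, any late day 0 array or P1 uninduced day 8 replicate 1 or 2 (-1.69 to -1.26), and that of Ankrd1, at the 2-fold limit, in 7 of 12 such fits (-1.11 to -0.91). Ctgf, often taken as the type target of the pathway, had 0.30 ± 0.21 (SE, adjusted p = 0.453). Tgfb3, a TGF-beta ligand, rose in P1 cells, with 4.93, 5.24 and 4.99 at day 8 and 3.66, 3.76 and 3.52 at day 0, and not by call in late cells, with 4.59, 4.61 and 4.02 at day 8 and 4.59, 4.99 and 5.11 at day 0. Its difference was -1.90 ± 0.26 (SE, adjusted p = 0.00311). The TGF-beta target list as a whole had 3 of 21 members higher, Bambi, Bhlhe40 and Pmepa1, and 1 lower, Tgfb3, with a median of -0.02 whose sign changed in 11 of 26 alternatives. The Pmepa1 call was lost in 10 of 12 fits that left out an array (1.02 to 1.46) and that of Bambi in 2 (1.1 to 1.44) and with the replicate block (adjusted p = 0.0668).

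Junction genes were called in both directions. Gjb1, connexin 32, the main gap junction protein of hepatocytes, read 2.14, 1.76 and 1.57 in uninduced late cells at day 8 and -0.39, -0.01 and -0.08 in late cells at day 0. P1 cells had 2.92, 3.12 and 3.33 at day 8 without induction and 3.82, 3.37 and 4.62 at day 0, and the difference was 2.80 ± 0.39 (SE, adjusted p = 0.00388). Gja1, connexin 43, which is common in mesenchymal cells, fell in both sets and by more in late cells, with a difference of -1.48 ± 0.23 (SE, adjusted p = 0.00613), reduced to -0.54 with no call by the mean of all probes. That mean includes dim probes, and the 2 other Gja1 probes well above background in a group gave -1.84 and -1.39. Cdh17, liver-intestine cadherin, differed by 3.93 ± 0.69 (SE, adjusted p = 0.0116), with a called rise in late cells and a called fall in P1 cells. That call and the one of Cdh2 were lost without the late passage 11 arrays and with the P1 arrays of a single slide. Cdh2, N-cadherin, which hepatocytes also carry, differed by -1.1 ± 0.20 (SE, adjusted p = 0.0124). Ocln, occludin, was higher by 1.96 ± 0.41 (SE, adjusted p = 0.0237) but missed the threshold with the replicate block (adjusted p = 0.0604) and in 4 of 12 fits that left out an array (1.57 to 2.16). Over the 28 tested junction genes, 3 were higher and 2 lower, with a median of 0.41.

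Biliary and progenitor markers showed no common direction. Of 29 tested, Prom1 was higher and Cftr and Muc1 were lower. The Prom1 and Muc1 calls were lost with the replicate block (adjusted p = 0.054 and 0.0826) and in 6 and 9 of 12 fits that left out an array (1.60 to 2.15 and -2.63 to -1.96), and the median of 0.37 changed sign without late uninduced day 8 replicate 1 (-0.12). That array stood apart from the other late day-8 arrays in duct keratins. Krt19 read 5.14 on it and 2.42 and 1.67 on the other uninduced late day-8 arrays, against 4.17, 3.83 and 4.34 in late cells at day 0, and between 5.13 and 6.01 on all P1 arrays, for a difference of -1.39 ± 0.97 (SE, adjusted p = 0.454). Krt7 read 3.41, 1.11 and -0.07 and Epcam 0.70, -2.10 and -2.70 on the same arrays, with differences of 1.73 ± 1.09 (SE, adjusted p = 0.404) and 1.26 ± 1.0 (SE, adjusted p = 0.518). The summed mesothelial markers ranged from 9.33 to 65.1 times the 75th percentile signal in uninduced late cells at day 8 and from 40.9 to 76.3 times in late cells at day 0, against 54.0 to 81.4 times in P1 cells at day 8 without induction and 57.6 to 66.5 times in P1 cells at day 0, and that sum includes Krt19 itself. Sox9, a progenitor and duct factor, rose in both sets and had a difference of 0.91 ± 0.24 (SE, adjusted p = 0.0552).

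Cell cycle inhibitors differed one by one. Cdkn2a, which encodes p16 and p19ARF, read 4.67, 4.83 and 4.15 in uninduced late cells at day 8 and 4.79, 4.78 and 4.57 in late cells at day 0, against 5.65, 5.39 and 5.81 in P1 cells at day 8 and 4.34, 4.57 and 4.79 in P1 cells at day 0. Only the P1 groups were apart, and the difference was -1.22 ± 0.26 (SE, adjusted p = 0.0269). That call was lost without late day 0 replicate 1 or 2, P1 uninduced day 8 replicate 1 or 3 or P1 day 0 replicate 1 or 2 (-1.36 to -1.02). Cdkn2c, p18, fell in P1 cells and not by call in late cells, with a difference of 1.08 ± 0.14 (SE, adjusted p = 0.00272), and fell short of 2-fold without late uninduced day 8 replicate 2 (0.997). Cdkn1a, p21, and Cdkn2b, p15, had differences of -0.37 ± 0.17 and 0.05 ± 0.24 (SE, adjusted p = 0.245 and 0.936). The 2 other Cdkn1a probes well above background in a group disagreed, at -1.21 and 1.02. Over the 26 members of the inhibitor and p53 target list, 2 were higher and 1 lower, with a median of -0.11.

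Cytokines and chemokines of the senescent secretome had 1 of 31 tested members higher, Vcam1, and 2 lower, Il11 and Ccl8. The Vcam1 call was lost in 9 of 12 fits that left out an array (1.48 to 2.00). Ccl8, a monocyte chemoattractant, was dim in uninduced late cells at day 8 and in P1 cells at day 0 and above background on 1 of 3 arrays of late cells at day 0, and its difference of -3.99 ± 0.81 (SE, adjusted p = 0.0204) is given without a fold bound. Matrix proteases and inhibitors had 3 of 19 higher and 1 lower. Mmp19, a secreted matrix protease, read 1.0, 0.47 and 0.60 in uninduced late cells at day 8, against -4.27, -4.47 and -4.17 in late cells at day 0, and 0.55, 0.58 and 0.34 in P1 cells at day 8 and -0.30, -0.22 and -0.49 in P1 cells at day 0. The groups did not overlap in either set, and the difference was 4.17 ± 0.21 (SE, adjusted p = 1.3e-05), with 0.69 for a second probe. Anxa8, an annexin that binds membrane phospholipids, differed by 4.29 ± 0.55 (SE, adjusted p = 0.00261), having risen by 5.73 in late cells and by 1.44 in P1 cells.

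The lists of respiratory chain, lysosome, bile acid, ribosomal, histone, antigen presentation, lymphocyte, erythroid and mesothelial genes had no member called in limma, with 0 to 10 members of each at an unadjusted p under 0.05. Over all 21529 tested genes, 4525 were under that limit. Of lysosome genes 10 of 27 were under it, with a median difference of -0.21 that stayed below 0 in all 26 alternatives. Histone genes had 6 of 18 under it, ribosomal genes 6 of 26 and antigen presentation genes 1 of 21. Respiratory chain subunits had the narrowest range of differences among the functional lists named here, from -0.36 to 0.13 over 29 genes.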

How the data were processed

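RNA was hybridised to 1-colour Agilent arrays. The authors deposited scanner output with a processed intensity per spot, background-subtracted by Agilent Feature Extraction per the file headers (version 10.7.3.1 for late arrays, 11.5.1.1 for P1 arrays), and log2 tables whose normalization the labels do not state. The intensity was scaled to each array's 75th percentile before log2 was taken. A gene is its brightest probe over all 21 arrays, tested if well above background on all arrays of at least 1 group, and 50 genes with spots marked as outliers were left out. limma 3.58.1 (R 4.3.3) fitted 4 group means over 12 arrays with default eBayes and tested the difference of differences, and calls needed a Benjamini-Hochberg adjusted p under 0.05 over all tested genes and a 2-fold size. The number of arrays, 3 a group, limits the precision. The pipeline was tested on simulated data.

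Named genes were 24 core genes, the 10 highest and 10 lowest called genes with a symbol that were measured on all 12 arrays, kept their sign under quantile and normexp processing and had no opposed probe, and up to 4 called members of each list. Others, among them Apoe, Krt18, Cebpd, Onecut1, Psat1 and uncalled members of lists, were chosen after their values were seen. The comparison, the lists and the rules were chosen with earlier results of these data known.

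Deviations from group means of same-numbered samples correlated at 0.28, 0.27 and 0.34 in the late set and 0.27, 0.19 and 0.43 in the P1 set. Same-numbered samples thus shared variation within a set, although replicate 3 also stood apart in passage (late) and in slide (P1). The values reported came from a fit that ignores the replicate number, and a fit with that number as a block was the alternative. Other alternatives changed the scaling, the background correction, the probes, the filter, the arrays in the fit, the variance prior and the slide, or left out arrays. The remaining 9 arrays of the series entered only the choice of probe and the fit of all 21 arrays.

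A few genes are not reported here.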

Additional observations from a re-analysis of the deposited data

Results flagged for a closer look

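The 8-day changes of late and P1 cells differed by a direct test of the difference for 413 genes with a higher change in late cells and 311 with a lower one. Among them 14 genes with a symbol had a called change in each set, in opposite directions, and the values here are log2 differences, late change minus P1 change.

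Genes that rose in late cells and fell in P1 cells were Cdh17, a cadherin, at 3.93, Tceal5, at 3.39, Gstt1, a glutathione transferase, at 3.02, Smim6, a small membrane protein, at 2.80, Slc38a4, an amino acid transporter, at 2.41, and Slc23a3, at 2.17. Slc38a4 was not well above background in either late group, so its late change is not measured, and Smim6 was not well above background in P1 cells at day 8, so its P1 fall is not measured exactly.

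Genes that fell in late cells and rose in P1 cells were Dio3os, a long RNA at the imprinted Dio3 locus, at -4.27, Inhbb, an activin subunit, at -3.64, Elmod1 at -3.51, Alox5, the 5-lipoxygenase, at -3.48, A630095E13Rik at -3.04, Rprm, a p53 target, at -3.03, Chst15, a sulfotransferase, at -2.81, and Bmp6, a ligand that sets hepcidin in liver, at -2.62. A630095E13Rik and Rprm were not well above background in late cells at day 8 or in P1 cells at day 0, and Dio3os not in P1 cells at day 0.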

How the results depend on the processing

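The number of genes with a higher change in late cells was 279 to 498 over the processing alternatives on all 12 arrays, and of those with a lower change 204 to 407. The replicate block gave the upper values, 498 and 407, and shared 366 and 278 calls with the values reported; it lost 13 of the 95 called named genes. Requiring all 12 arrays above background left fewer genes to test and gave 204 lower calls and 1485 calls for the P1 8-day change without induction, for which normexp gave 1527, against 1324 that rose and 1055 that fell; for normexp the cause was not tested. With the P1 arrays of a single slide, an alternative chosen after seeing the data that uses fewer samples, 214 genes were higher and 180 lower, 198 and 151 of them shared. Leaving out 1 array at a time gave 305 to 424 higher and 217 to 352 lower calls, 3099 to 3468 calls for the late change and 2074 to 2574 for the P1 change, with both lowest difference counts without P1 uninduced day 8 replicate 1. The single-slide fit lost 46 of the 95 called named genes, among them Lcn2, Prox1, Nr5a2, Cdkn1c, Meg3 and Ahsg. The fit without the late passage 11 arrays lost 31. No named gene reversed. The replicate block with slide was not run separately, since the slide is contained in the replicate number. Dim probes in late cells at day 0 limit many differences to bounds.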

Other observations

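Notch pathway genes, not described above, had 2 of 13 tested members lower and none higher, with a median of 0.04: Lfng, a glycosyltransferase that modifies Notch, and Nrarp, a Notch feedback regulator. The Lfng call was lost in 7 of 12 fits that left out an array (-1.77 to -1.31), and that of Nrarp, above background on 1 of 3 arrays of uninduced late cells at day 8, in none (-1.56 to -1.25). Both calls were lost with normexp background correction, at -0.98 for Lfng and -0.60 for Nrarp. They were also lost without the late passage 11 arrays and with the P1 arrays of a single slide. Feedback targets of Wnt signalling had 1 of 17 members higher, Rnf43, a ligase that removes Wnt receptors, and 1 lower, Wnt7b, a ligand, whose call was lost in 10 of 12 such fits (-1.91 to -1.26). Targets of NRF2, the regulator of antioxidant defence, had 1 of 24 members higher, Slc7a11, and a median of 0.01.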
